A study of Homo sapiens with 12 samples.

Results

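The comparison set HepG2 cells in which a hairpin RNA targets p53 (sh-p53) beside HepG2 cells with a control hairpin (sh-con), both exposed to 0.5 mM AICAR for 24 h. It rests on 4 of the 12 arrays of the study, 2 for each line, chosen by the line and treatment in their titles, and it was read across 13813 genes. HepG2 is an established human hepatoma line that keeps many functions of hepatocytes. The other 8 arrays hold the same 2 lines, 2 arrays each, after 24 h in DMSO, the solvent, or in 10 uM Nutlin, and they serve here only to show where the difference between the lines under AICAR stands apart. The labels name 1 line for each hairpin and describe the cultures as biological duplicates, so loss of p53 cannot be told apart from any other difference between these lines, and the errors measure the spread between duplicate cultures. Known p53 target genes were read as the check on the hairpin. Their lists were drawn up with earlier results of these data known, so the check is not independent of the data.

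The transcription factor p53 binds paired half-sites near its target genes and raises genes that stop the cell cycle, repair DNA, trigger cell death, dampen growth signalling and, through MDM2 and other ubiquitin ligases, limit p53 itself. AICAR enters cells and is turned into an analogue of AMP that activates AMPK, the kinase that senses low energy and that can phosphorylate p53. Nutlin instead frees p53 by blocking its pocket on MDM2. In liver cells p53 is also known to touch drug metabolism, glucose output and lipid handling.

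All values are on the log2 scale of RMA, a summary of the probes of each gene, so a difference of 1 is a 2-fold difference. The 4 arrays had medians of 5.83 and 5.77 in sh-p53 and 5.76 and 5.84 in sh-con. Duplicates correlated across the genes tested at r = 0.991 in sh-p53 and 0.983 in sh-con. The SD of the difference between duplicates over these genes was 0.231 in sh-p53 and 0.302 in sh-con. The precision is limited by the number of arrays. The hepatocyte label was met: all 12 hepatocyte markers measured lay above 4.58, the level under which a gene's mean left it untested. Albumin, ALB, stood at 12.57 and 12.66 in sh-p53 and at 13.01 and 12.96 in sh-con. CYP2E1 lay close to the limit, at 4.95 and 4.88 in sh-p53 and 4.83 and 4.90 in sh-con. HNF4A was not analysed here.

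Under AICAR, 571 genes were higher in sh-p53 (4.13% of the 13813 tested) and 648 were lower (4.69%) at a Benjamini-Hochberg adjusted p under 0.05 in a limma fit of all 12 arrays. The lower genes were further away: 128 were at least 2-fold lower and 23 at least 2-fold higher, and the median size of a called difference was 0.68 among lower genes and 0.59 among higher ones. The smallest difference called was 0.42. The median over all genes was 0.028. The counts depended on single arrays. Without the second sh-p53 array 139 genes were called higher, and without the first 257 were higher and 264 lower. Without the second sh-con array 308 were higher, and without the first 357 were lower. Of the 151 genes with a difference of at least 2-fold, from 148 to 151 were called again when any 1 of the 4 arrays was left out, but the number past 2-fold moved. Without the second sh-p53 array 9 genes were called at least 2-fold higher, without the first 41, without the second sh-con array 17 and without the first 46. The number at least 2-fold lower ran from 106 to 183.

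**Figure D1:**
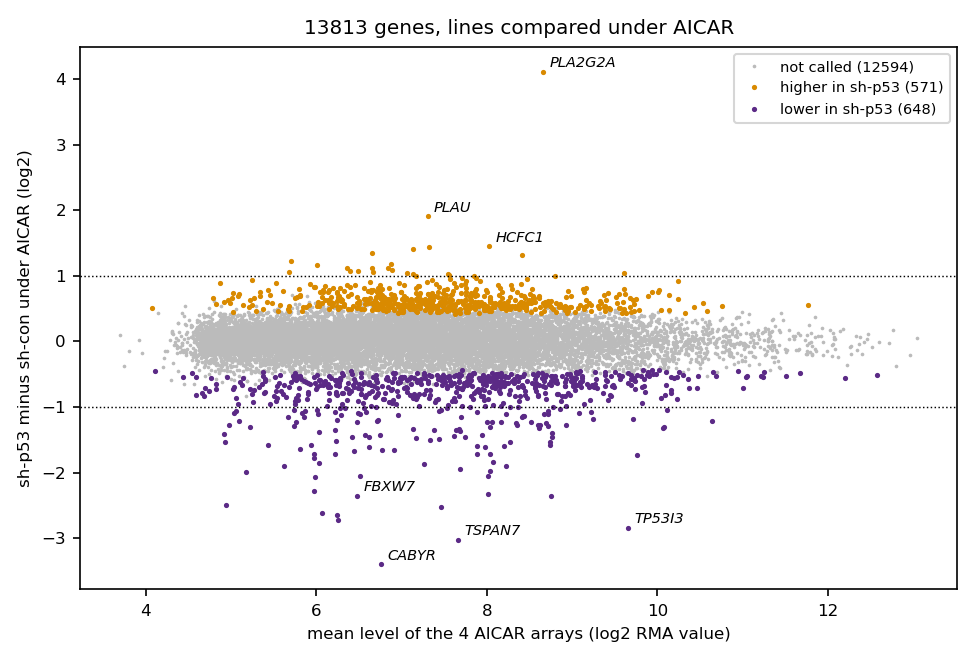
Each point is 1 of the 13813 genes, with the mean log2 RMA value of the 4 AICAR arrays on the x axis and the difference sh-p53 minus sh-con on the y axis; dotted lines mark 2-fold. Called genes are coloured by direction, 571 higher and 648 lower, and the lower genes reach further from 0 apart from PLA2G2A at 4.11.

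Known p53 targets were lower in sh-p53. CDKN1A, the gene of p21, which inhibits cyclin-dependent kinases, had 8.02 and 7.96 in sh-p53 and 9.31 and 9.21 in sh-con, a difference of -1.27 ± 0.13 (SE, 2 arrays against 2, adjusted p = 9.67e-06). MDM2, the ligase that returns p53 to degradation, stood at 9.96 and 10.12 in sh-p53 and at 11.25 in both sh-con arrays, a difference of -1.21 ± 0.14. TP53I3, which encodes a quinone oxidoreductase, had values of 8.12 and 8.36 in sh-p53 and of 11.13 and 11.02 in sh-con, a difference of -2.84 ± 0.16 (adjusted p = 3.60e-09). The lines did not overlap in any of these 3 genes. Across all genes tested, both sh-p53 arrays lay under both sh-con arrays in 19.5% and over them in 23.8%. Over 6 lists of p53 targets, 87 of 95 members were measured and 85 tested. Of these 39 were lower and 1 higher, that is 45.9% and 1.18% of the members tested, with a median difference of -0.40. Over all genes tested the shares were 4.69% lower and 4.13% higher, and the counts by role below stand beside the same shares. Without the first sh-p53 array 25 were lower and 0 higher.

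Among targets that halt the cell cycle, 7 of 15 tested were lower and 1 was higher, and 4 were lower without the first sh-p53 array. GDF15, a secreted stress cytokine, stood at 9.39 and 9.40 in sh-p53 and at 10.88 and 10.57 in sh-con, the lowest difference of the list at -1.33 ± 0.15. ZMAT3, an RNA-binding protein gene, was lower by a difference of -1.0, PTCHD4, a Patched-like inhibitor of Hedgehog signalling, by -0.85, and the damage-response gene GADD45A by -0.66. The kinase gene PLK3 had a difference of -0.60 and SFN, which encodes 14-3-3 sigma, one of -0.43. CDKN2A, which encodes the inhibitor p16 and the MDM2 antagonist ARF, was the exception, at 6.68 and 6.55 in sh-p53 and 5.64 and 5.94 in sh-con, a difference of 0.82 ± 0.18. It is not a gene that p53 is known to raise. Members that missed the threshold included CDKN1B at -0.21, CDKN1C at 0.16 and GADD45B at 0.03.

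In the feedback arm, 6 of 12 tested were lower and 0 higher. FBXW7, the substrate receptor of a ubiquitin ligase for cyclin E and MYC, stood at 5.32 and 5.30 in sh-p53 and at 7.82 and 7.5 in sh-con, a difference of -2.35 ± 0.20 (adjusted p = 4.95e-07). TRIM22, an antiviral ubiquitin ligase, stood at 4.18 and 4.16 in sh-p53 and at 6.44 and 5.90 in sh-con. Its sh-p53 level lay under 4.58, the limit used to leave out dim genes, so its difference of -2.0 is uncertain in size. PPM1D, the phosphatase that switches off p53 and its kinases, had a difference of -1.18 ± 0.13, MDM4, the partner of MDM2, one of -0.93 and the small inhibitor gene TRIAP1 one of -0.46. Among the 6 members not called were PHLDA3 at -0.39 and CCNG1 at -0.06.

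Among death genes 12 of 23 tested were lower and 0 higher. The death receptor FAS stood at 6.84 and 7.27 in sh-p53 and at 9.11 and 8.94 in sh-con, a difference of -1.97 ± 0.15 (adjusted p = 1.81e-07). TP53INP1, a nuclear partner of p53, stood at 8.83 and 8.96 in sh-p53 and at 10.70 and 10.54 in sh-con, and APAF1, the scaffold of the apoptosome, at 8.01 and 8.14 in sh-p53 and at 9.49 and 9.16 in sh-con. In both genes the lines were apart by more than the gap between duplicates. The receptors of TRAIL, TNFRSF10A and TNFRSF10B, differed by -1.11 and -0.88, and TRAIL itself, TNFSF10, by -0.86. CASP10, a caspase of death receptors, differed by -1.16 and PMAIP1, the BH3-only protein NOXA, by -1.15. PIDD1, CASP6, BCL2L1 and PERP were lower by -0.88 to -0.45. The lines overlapped in BAX, at 8.79 and 8.89 in sh-p53 and 8.82 and 8.92 in sh-con, and in BBC3, the BH3-only protein PUMA, at 7.28 and 6.93 in sh-p53 and 6.86 and 7.22 in sh-con. BAX and BBC3 are standard p53 targets, and their differences were -0.03 ± 0.14 and 0.07 ± 0.18.

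Of 10 DNA repair genes tested, 6 were lower and 0 higher, and 2 were lower without the first sh-p53 array. RRM2B, the p53-inducible subunit of ribonucleotide reductase, stood at 7.77 and 7.97 in sh-p53 and at 9.09 and 8.92 in sh-con, a difference of -1.14 ± 0.15. RAD51C, of homologous recombination, differed by -1.06 ± 0.20, with a wide gap between its sh-p53 arrays, 6.59 and 7.22. DDB2, the sensor of ultraviolet damage, differed by -0.76, the ribosomal protein gene RPS27L by -0.71 and the translesion polymerase POLH by -0.53. XPC, the partner of DDB2 in damage recognition, was not called, at -0.25. GADD45A is counted here as well.

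Among 17 redox and metabolic targets tested, 6 were lower and 0 higher. TIGAR, a phosphatase that slows glycolysis, stood at 7.16 and 7.64 in sh-p53 and at 9.07 and 8.93 in sh-con, a difference of -1.60 ± 0.19. SPATA18, which clears damaged mitochondrial protein, differed by -1.11, the cytidine deaminase gene APOBEC3C by -0.83 and the peroxidase gene GPX1 by -0.69, or by -0.29 in its other probe set. SCO2, an assembly factor of cytochrome c oxidase, overlapped between the lines, at 6.70 and 6.46 in sh-p53 and 6.64 and 6.82 in sh-con. Among 11 targets that act on mTORC1 or autophagy 4 were lower and 0 higher, with 1 lower without the first sh-con array and 2 without the first sh-p53 array. SESN1, a sestrin that restrains mTORC1, stood at 8.54 and 8.76 in sh-p53 and at 9.99 and 9.69 in sh-con, and differed by -1.19 ± 0.15. DDIT4 differed by -0.84, the lysosomal gene DRAM1 by -0.72 and SESN2 by -0.66. The AMPK subunit PRKAB1 and the autophagy kinase ULK1 were not called, at -0.36 and 0.35.

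**Figure D2:**
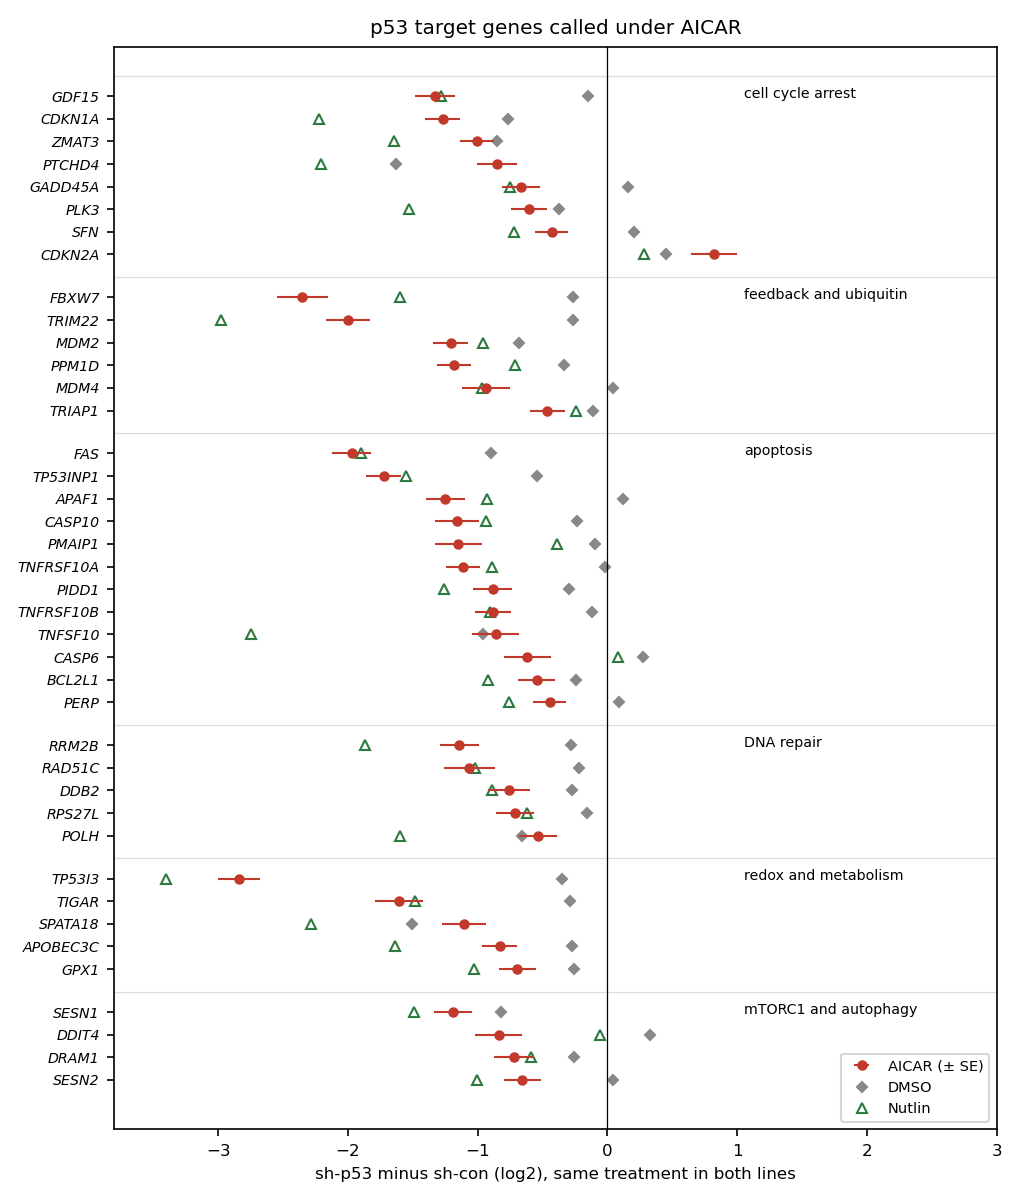
Points give the difference sh-p53 minus sh-con in log2 for each p53 target called under AICAR, by role, with the SE of the AICAR value as bars and the same difference in DMSO and in Nutlin beside it. Apart from CDKN2A at 0.82, all AICAR points lie left of 0, and the DMSO points mostly lie closer to 0 than the AICAR points.

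The bases before the start of these genes were searched for the p53 consensus element, a pair of adjoining half-sites. Windows of 300 bases, from 250 before to 50 after each RefSeq start, were read for 10836 of the genes tested, on assembly GRCh38.p14, and since the element reads alike on both strands 1 search covered both. With up to 2 mismatches in its 20 positions, the element lay in 17 of 537 genes called lower (3.17%), in 3 of 449 called higher (0.668%), in 73 of the 10836 tested (0.674%) and in 224 of all 27305 genes with a window (0.820%). With members of the 6 p53 lists left out it lay in 12 of 506 lower genes (2.37%). These 12 still held ACTA2, whose match is the site of FAS on the other strand, and PCNA, itself a known p53 target. Leaving out the lists therefore did not remove every known p53 gene or site. The only tested gene that held it with 0 mismatches was PTCHD4. Its 250 bases before the start, chr6:48111198-48111447 on the minus strand, are shown with the element in capitals.
PTCHD4: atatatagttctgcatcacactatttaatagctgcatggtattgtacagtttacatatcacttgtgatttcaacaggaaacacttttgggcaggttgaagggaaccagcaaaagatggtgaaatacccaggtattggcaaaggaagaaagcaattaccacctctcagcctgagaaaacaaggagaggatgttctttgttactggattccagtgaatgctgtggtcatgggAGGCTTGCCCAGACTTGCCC
PTCHD4 stood at 6.07 and 6.45 in sh-p53 and at 7.19 and 7.02 in sh-con, and its other probe set differed by -1.15.

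A selection of the other matches among lower genes is printed next, with matching bases in capitals and mismatches in lower case. DDB2 and PDE4C are shown as the lower genes with 1 mismatch. FAS, MDM2 and HSPA4L are shown from the genes with 2, FAS because it shares its site with ACTA2 on the opposite strand, MDM2 as the feedback ligase of p53 and HSPA4L as a gene outside the target lists. The FAS site is chr10:88991309-88991328 on the plus strand, that of DDB2 is chr11:47214969-47214988 on the plus strand, that of PDE4C is chr19:18224681-18224700 on the minus strand, that of MDM2 is chr12:68808923-68808942 on the plus strand and that of HSPA4L is chr4:127783509-127783528 on the plus strand.
FAS: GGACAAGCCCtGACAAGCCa
DDB2: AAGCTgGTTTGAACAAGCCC
PDE4C: GGAgATGCCCGAACTAGCCC
MDM2: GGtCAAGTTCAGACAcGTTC
HSPA4L: AAACATGTTTccACATGTTC
ACTA2, the smooth muscle actin gene, stood at 6.25 and 6.40 in sh-p53 and at 8.37 and 8.03 in sh-con, a difference of -1.88 ± 0.16 beside the -1.97 of FAS. PDE4C, a cyclic AMP phosphodiesterase gene, stood at 6.15 and 6.10 in sh-p53 and at 7.42 and 7.22 in sh-con. HSPA4L, an HSP110-family chaperone gene, stood at 7.81 and 8.32 in sh-p53 and at 9.56 and 9.38 in sh-con. The lines did not overlap in these 3 genes, which were picked from the called genes. Both sh-p53 arrays lay under both sh-con arrays in 19.5% of all genes tested. PDE4C and HSPA4L were named after their values had been seen. The element was also matched with 2 mismatches in GPX1, PCNA, ETNK1, GRHL3, METTL8, NSMCE3, RALGDS, RPS19, UBASH3B and ZFYVE1.

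Beyond the target lists, the furthest differences lay among genes of very different functions. Across all genes tested, the arrays of sh-p53 were both under those of sh-con in 19.5% and both over them in 23.8%. CABYR, a calcium-binding protein gene of the sperm flagellum, had the lowest difference, with 5.07 and 5.05 in sh-p53 against 8.38 and 8.53 in sh-con, that is 10.6-fold lower (-3.40 ± 0.14, adjusted p = 6.04e-11). TSPAN7, a tetraspanin, was 8.12-fold lower, with 6.17 and 6.14 in sh-p53 against 9.20 and 9.15 in sh-con. In both, the lines were apart by many times the gap between duplicates. HCAR3, a receptor for hydroxylated fatty acids with a near-identical neighbour, HCAR2, from which probes may not separate it, was 6.58-fold lower. ZSCAN4, a zinc-finger gene of the early embryo, was 6.23-fold lower and CSTA, a cysteine protease inhibitor, 6.15-fold lower. SULF2, which trims heparan sulfate, was 5.75-fold lower, with 6.05 and 6.36 in sh-p53 against 8.84 and 8.62 in sh-con. CLTRN, which encodes collectrin, stood at 3.86 and 3.54 in sh-p53, under 4.58, against 6.25 and 6.12 in sh-con, so the size of its difference of -2.49 is uncertain. MR1, which presents vitamin metabolites to T cells, was 5.10-fold lower, with 7.52 and 7.64 in sh-p53 against 10.01 and 9.85 in sh-con. PLAC8 differed by -2.32 and GSTA1 by -2.29.

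The highest difference stood alone. PLA2G2A, a secreted phospholipase A2 gene, reached 10.62 and 10.81 in sh-p53, against 6.77 and 6.44 in sh-con, and was 17.3-fold higher (4.11 ± 0.16, adjusted p = 2.71e-11). PLAU, which encodes urokinase, the activator of plasminogen, stood at 8.22 and 8.30 in sh-p53 and at 6.33 and 6.38 in sh-con and was 3.75-fold higher. HCFC1, a chromatin cofactor, stood at 8.64 and 8.88 in sh-p53 and at 7.52 and 7.08 in sh-con, 2.75-fold higher. In all 3 genes the lines were apart by more than the gap between duplicates. NPNT, a matrix ligand of integrins, differed by 1.44 and CLDN6, a claudin of embryonic epithelia, by 1.41. CAVIN1, of the caveolar coat, differed by 1.18, the liver nuclear receptor gene NR5A2 by 1.16, the estrogen receptor gene GPER1 by 1.12 and the flippase gene ATP9A by 1.12. FAM111B, a protease gene, differed by 1.32, with 8.96 and 9.18 in sh-p53 against 8.0 and 7.5 in sh-con. CCDC88C, a partner of Dishevelled, had sh-con arrays far apart, 6.47 and 5.49, and its other probe set differed by 0.57 where the one used differed by 1.35. It was not called without the second sh-p53 array. H2BC12, a histone H2B gene whose relatives are near-identical, differed by 1.23 ± 0.36 (adjusted p = 0.0418). H2BC12 was not called in 6 of the 13 alternatives that tested it, among them without the second sh-con array or either sh-p53 array, with an adjusted p of up to 0.233.

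**Figure D3:**
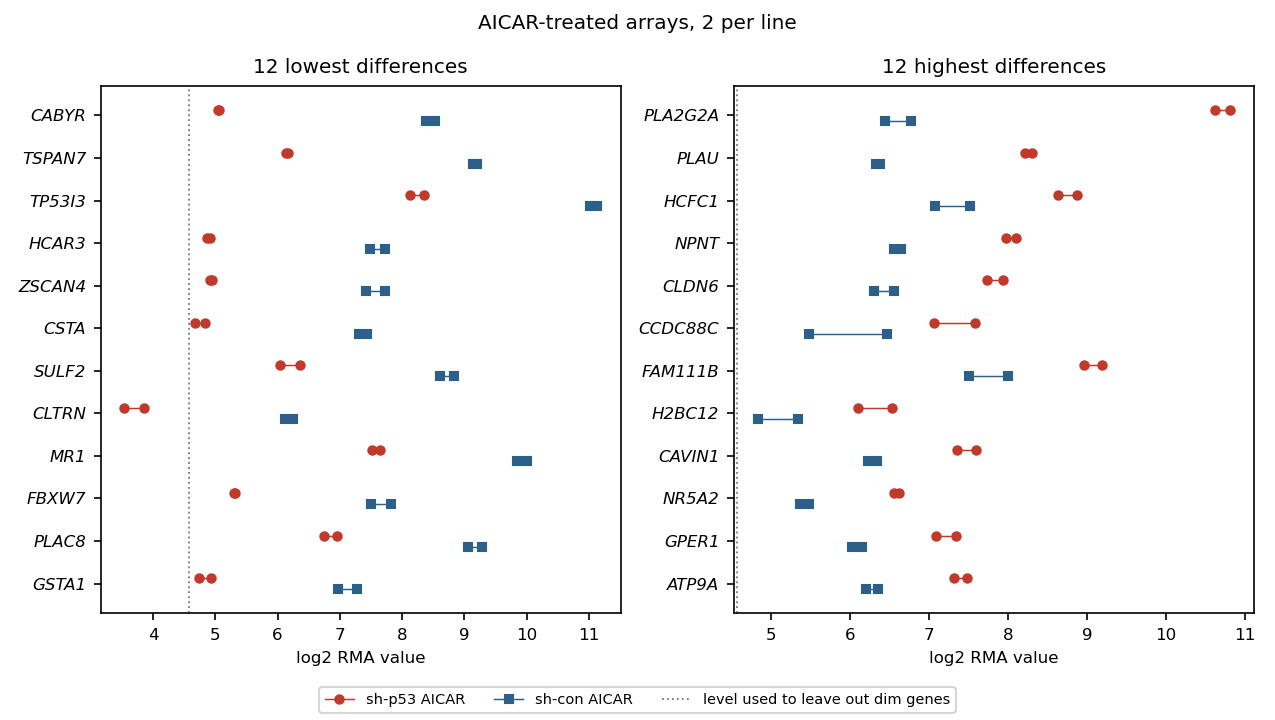
Log2 RMA values of each of the 4 AICAR arrays for the 12 genes with the lowest and the 12 with the highest differences; circles are sh-p53, squares sh-con, and lines join duplicates. The 24 genes were chosen from called genes in which the lines do not overlap, so the lack of overlap follows from the choice. CLTRN in sh-p53 lies under the dotted level of 4.58.

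Some replication genes were higher in sh-p53, and few mitotic genes were called. Over all genes tested 4.13% were higher and 4.69% lower, beside 34.7% and 2.04% of the S phase list. Of 49 genes of S phase and replication tested, 17 were higher, 1 was lower and 31 were not called, with a median of 0.29, and 7 were higher without the second sh-con array and 6 without the second sh-p53 array. E2F2, an activator of S phase genes, stood at 6.74 and 7.09 in sh-p53 and at 5.98 and 5.62 in sh-con, a difference of 1.12 ± 0.17. MCM6, a subunit of the replicative helicase, stood at 8.29 and 8.42 in sh-p53 and at 7.46 and 7.33 in sh-con, a difference of 0.96 ± 0.15. E2F8 differed by 0.96, UHRF1, which keeps DNA methylation through replication, by 0.95, E2F1 by 0.87 and the cyclin gene CCNE1 by 0.81. UHRF1 differed by 0.26 in its dimmer probe set. PCNA, the sliding clamp of replication and itself a known p53 target, went the other way, at 10.89 and 11.04 in sh-p53 and 11.56 and 11.45 in sh-con, a difference of -0.54 ± 0.14. Of 53 mitosis and kinetochore genes 3 were higher (5.66%) and 2 lower (3.77%), close to the shares over all genes, with a median of 0.027. FOXM1, the transcription factor of mitotic genes, differed by 0.75, the phosphatase gene CDC25B by 0.72 and the kinase gene NEK2 by 0.56. CKS2 differed by -0.49 and PTTG1, securin, by -0.47. CDK1 was not called, at 8.47 and 8.80 in sh-p53 and 9.02 and 9.0 in sh-con.

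Some genes of drug metabolism were lower. The shares over all genes tested were 4.69% lower and 4.13% higher. Beside them stood 37.1% and 2.86% of the cytochrome P450 and conjugation list, and 29.5% and 0% of the secreted protein list. Of 35 cytochrome P450 and conjugation genes tested, 13 were lower, 1 was higher and 21 were not called, with a median of -0.17, and from 10 to 14 were lower when any 1 array was left out. GSTA1, a glutathione transferase gene of hepatocytes, stood at 4.93 and 4.74 in sh-p53 and at 7.27 and 6.97 in sh-con. AKR1C2, a ketosteroid reductase gene, differed by -1.61 ± 0.17, GSTA2 by -1.58 ± 0.25, and the glucuronosyltransferase genes UGT2B4 and UGT2B7 by -1.46 and -1.43. These belong to families of close copies, GSTA1 with GSTA2, AKR1C2 with its AKR1C relatives and UGT2B4 with UGT2B7, and probes may read more than 1 copy. CYP4F2, a fatty acid hydroxylase gene, differed by -1.37, and GSTM3 was the higher one, at 0.74. Secreted proteins of hepatocytes gave 13 lower and 0 higher of 44, with a median of -0.20, and 8 were lower without either of the sh-p53 arrays. CP, which encodes ceruloplasmin, the copper carrier of plasma, stood at 8.0 and 7.95 in sh-p53 and at 9.61 and 9.40 in sh-con, a difference of -1.53 ± 0.18. HP, haptoglobin, which binds free hemoglobin, stood at 6.89 and 7.56 in sh-p53 and at 8.66 and 8.65 in sh-con, a difference of -1.44 ± 0.21. KNG1 differed by -0.95, APOM by -0.93 and ITIH3 by -0.86. Of 12 hepatocyte markers 1 was lower, AFP, at 12.29 and 12.35 in sh-p53 and 12.85 and 12.83 in sh-con. AFP was not called when any 1 of the AICAR arrays was left out, nor with the AICAR arrays alone. Its difference ran from -0.55 to -0.48 across the alternatives.

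Fasting and nutrient genes moved in smaller numbers. Of 23 gluconeogenesis and glucose output genes 6 were lower and 1 higher, with a median of -0.0001, and 3 or 4 were lower when any 1 of the arrays was left out. With arrays centred on their medians 3 were lower. IGFBP1, a binding protein of insulin-like growth factors, stood at 7.43 and 6.94 in sh-p53 and at 9.04 and 8.75 in sh-con, a difference of -1.71 ± 0.22. G6PC1, the glucose-6-phosphatase that releases glucose, stood at 5.97 and 5.75 in sh-p53 and at 7.26 and 6.92 in sh-con, a difference of -1.23 ± 0.15. PCK1, which commits carbon to glucose, stood at 5.39 and 5.36 in sh-p53 and at 6.34 and 6.05 in sh-con, a difference of -0.82 ± 0.16. IRS1, of insulin signalling, differed by 0.64. The response to amino acid lack and unfolded protein gave 6 lower and 1 higher of 39, with 3 lower without the first sh-con or the first sh-p53 array. NUPR1, a stress regulator, differed by -1.60, the cystine carrier gene SLC7A11 by -1.07 and the serine tRNA ligase gene SARS1 by -0.70; SESN2 and DDIT4 are counted here too. Fatty acid synthesis gave 4 higher and 1 lower of 20. FASN, the fatty acid synthase, stood at 10.22 and 10.39 in sh-p53 and at 9.57 and 9.55 in sh-con, a difference of 0.75 ± 0.15, and FADS2, MLXIPL and PNPLA3 differed by 0.65, 0.55 and 0.48. In this list 1 gene was called higher without the second sh-p53 array, and 2 without the first sh-p53 or the second sh-con array. PLIN2, which coats lipid droplets, differed by -0.52. CAD, which starts pyrimidine synthesis, differed by 1.02 ± 0.14. Of 29 purine and pyrimidine genes 2 were higher (6.90%) and 1 lower (3.45%), close to the shares over all genes.

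Surface and matrix genes gave 9 lower and 3 higher of 41, with 5 lower without the second sh-p53 array, and included TSPAN7, SULF2, SPP1 at -1.04, SPARC at -0.96 and PLA2G2A. Of 11 genes of AMPK and its kinases, 0 were higher and 0 lower by limma's adjusted p. Before adjustment 3 had a p under 0.05, of which 1 was higher and 2 were lower. Their differences ran from -0.36 to 0.37, with a median of -0.058. The remaining lists had few calls in number, given here as higher and lower, beside 4.13% and 4.69% of all genes tested. Immediate early and stress kinase genes gave 1 and 1 of 28 and the EGF family 1 and 0 of 8 (ERBB2 at 0.62). Cholesterol genes gave 0 and 2 of 18, fatty acid oxidation genes 0 and 1 of 25 and glycolysis genes 0 and 1 of 27. NRF2 genes gave 0 and 1 of 24, hepatocyte transcription factors 2 and 1 of 20 and the insulin-like growth factor system 3 and 1 of 14. Ribosome biogenesis genes gave 3 and 2 of 39, autophagy and lysosome genes 0 and 2 of 38 and interferon genes 1 and 3 of 24. The largest shares among them, each from 3 genes, were 21.4% higher in the insulin-like growth factor system and 12.5% lower among interferon genes. Of 19 reference genes 1 was higher, the proteasome subunit PSMB2 at 0.46, and 1 lower, B2M at -0.53. With arrays centred on their medians neither was called.

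**Figure D4:**
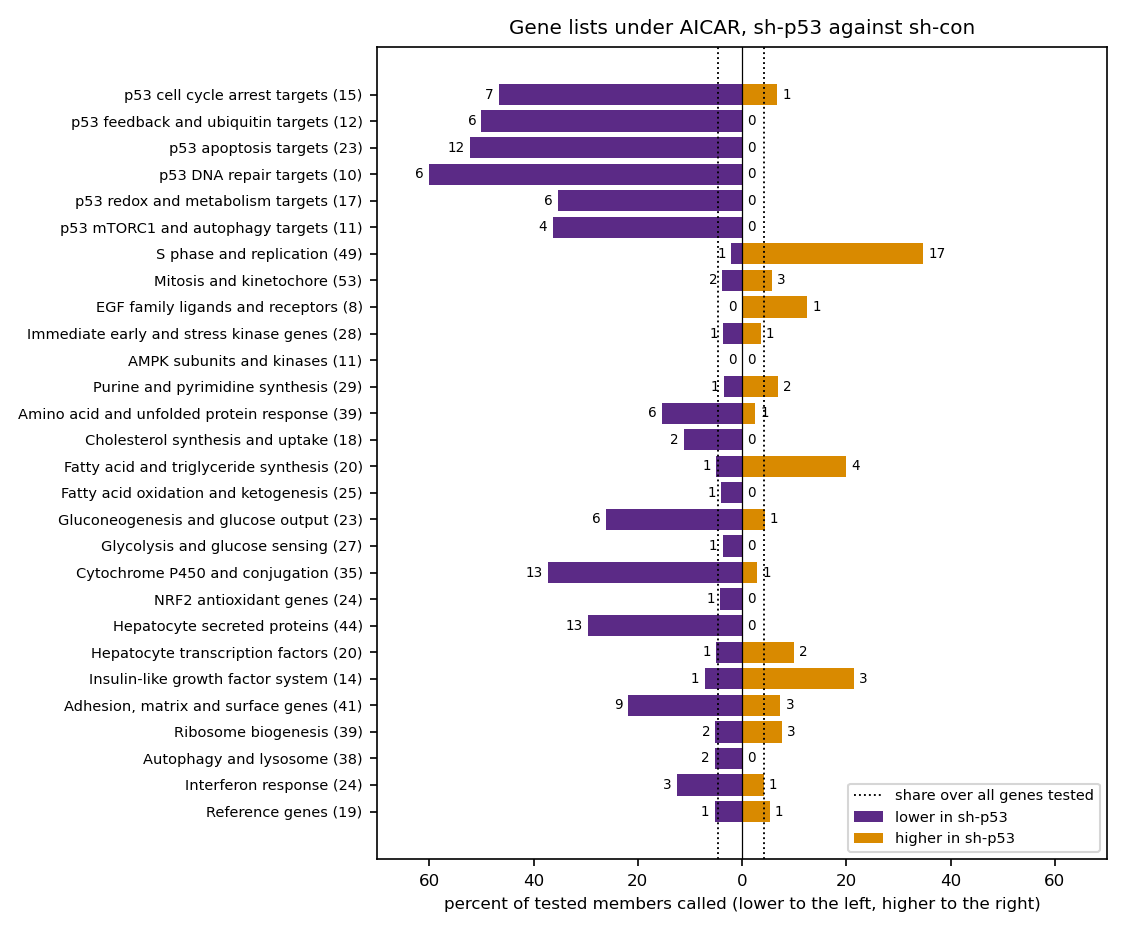
Bars give the percent of tested members of each list called lower (left) and higher (right) in sh-p53, with the number called at the end of each bar and the number tested in brackets; dotted lines mark the shares over all genes, 4.69% and 4.13%. The 6 p53 lists, drug metabolism and secreted proteins extend to the left and S phase to the right.

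Markers of other cell types were read because cultures or arrays can carry foreign RNA. Of 11 endothelial markers, 9 in sh-p53 and 8 in sh-con lay under 4.58, and 0 of the 2 tested were called. Of 9 leukocyte markers measured 3 in sh-p53 and 2 in sh-con lay under that level, and 0 of 6 tested were called. At an unadjusted p under 0.05 limma gave 0 endothelial markers and 1 leukocyte marker. The log2 of the summed level was 7.91 and 7.82 in sh-p53 and 7.83 and 7.96 in sh-con for endothelial markers, and 12.47 and 12.57 in sh-p53 and 12.71 and 12.67 in sh-con for leukocyte markers. Among fibroblast and stellate markers 1 of 6 tested was lower, ACTA2, and the log2 of the summed level of the list was 8.91 and 8.82 in sh-p53 and 9.39 and 9.42 in sh-con. Among cholangiocyte and progenitor markers, PROM1 at 0.62 and LGR5 at 0.56 were higher and SPP1 lower, of 8 tested, and the summed level was 12.04 and 12.06 in sh-p53 and 12.41 and 12.30 in sh-con. What these lists contribute to the other results was not tested.

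The lines differed in fewer genes in DMSO, where 36 were higher in sh-p53 (0.261%) and 53 lower (0.384%). Without any 1 of the DMSO arrays 22 to 24 were higher; 20 were lower without the first sh-con array, 23 and 29 without the first and second sh-p53 arrays. The AICAR and DMSO comparisons share no array, but the fit gives each gene the same estimate of spread in both, so their calls are not independent. Of the 648 genes lower under AICAR 40 were also lower in DMSO, which is 6.17% of the AICAR list and 75.5% of the DMSO list. Of the 571 higher genes 19 were also higher, 3.33% of the AICAR list and 52.8% of the DMSO list, and 0 genes were called in opposite directions. Across the 13813 genes, which are not independent, Pearson r between the 2 sets of differences was 0.289. Of genes called in both, PLA2G2A differed by 4.11 under AICAR and 3.42 in DMSO, TSPAN7 by -3.02 and -2.69, GSTA1 by -2.29 and -2.65, SULF2 by -2.52 and -1.67, AKR1C2 by -1.61 and -1.45 and NPNT by 1.44 and 1.46. Of the 35 cytochrome P450 and conjugation genes 6 were lower in DMSO and 1 higher. Their median was -0.23 in DMSO and -0.17 under AICAR. Of the 44 secreted protein genes 1 was lower in DMSO and 0 higher, with medians of -0.16 in DMSO and -0.20 under AICAR. Among the p53 targets, 9 were lower in DMSO and 0 higher. They included CDKN1A at -0.76, MDM2 at -0.68 and FAS at -0.89, while TP53I3 was not called there, at -0.35.

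The difference between the lines was then compared between AICAR and DMSO as an interaction. It was more positive under AICAR in 42 genes (0.304%) and more negative in 98 (0.709%). CABYR had the most negative value, -3.57 ± 0.20 (adjusted p = 1.78e-08), with a difference between the lines of -3.40 under AICAR and 0.17 in DMSO. TP53I3 followed at -2.49, with -2.84 under AICAR and -0.35 in DMSO. CLTRN had -2.49, CSTA -2.33, LACC1, a purine-metabolising enzyme of immune cells, -2.30 and ZSCAN4 -2.25. Of the 85 p53 targets 11 were more negative under AICAR and 0 more positive, among them APAF1 at -1.37, GDF15 at -1.17 and FAS at -1.08; for CDKN1A and MDM2 the values were -0.51 and -0.52 and were not called (adjusted p = 0.24 and 0.23). At the positive end HCFC1 had 1.66 ± 0.24, PLAU 1.55, FAM111B 1.39, BAHD1 1.26 and the small nucleolar RNA gene SNORA20 1.16. CRYBG1 had 1.28, with a difference between the lines of 0.24 under AICAR, not called, and -1.04 in DMSO. In the cytochrome P450 and conjugation list and the secreted protein list 0 genes were called in either direction. With arrays centred on their medians 16.9% of the calls were positive, against 30.0% as measured. The counts rested on single arrays. Without one of the 4 DMSO arrays 3 to 8 genes were more positive and 35 to 43 more negative. Without one of the sh-p53 AICAR arrays 14 (first) and 9 (second) were more positive and 37 and 59 more negative. Without the first sh-con AICAR array they were 73 and 64, and without the second 30 and 170.

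Under Nutlin 1808 genes were higher in sh-p53 (13.1%) and 1148 lower (8.31%). The arrays are again not shared with the AICAR comparison, but the estimate of spread for each gene is. Without the first sh-p53 array 889 were higher, without the second sh-con array 958 were higher and without the first 733 were lower. Of the 648 genes lower under AICAR 345 were lower under Nutlin, 53.2% of the AICAR list and 30.1% of the Nutlin list, and 33 were higher. Of the 571 higher genes 211 were higher under Nutlin, 37.0% and 11.7% of the lists, and 9 were lower. Pearson r across the genes was 0.382. HP, among the genes called in opposite directions, differed by -1.44 under AICAR and 0.81 under Nutlin, SLC6A14, an amino acid carrier gene, by -1.59 and 0.85, and CENPW, a kinetochore gene, by -1.0 and 1.40; SLC6A14 and CENPW were named after their values had been seen. Of the p53 targets 45 were lower under Nutlin and 2 higher. TP53I3 differed by -2.84 under AICAR and -3.40 under Nutlin, MDM2 by -1.21 and -0.96, and CDKN1A by -1.27 and -2.22. The cell cycle lists differed in most members. Under Nutlin 45 of 49 S phase genes were higher, with a median of 1.74, and 52 of 53 mitosis genes, with a median of 2.53, beside 17 and 3 under AICAR.

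As an interaction, the difference between the lines was more positive under AICAR than under Nutlin in 364 genes (2.64%) and more negative in 724 (5.24%). The most negative were the histone genes H2BC14 at -4.52, H2BC7 at -3.83 and H4C2 at -3.66, the mitotic kinase gene CDK1 at -3.81, and the kinetochore genes SPC25 at -3.67 and NUF2 at -3.63. Of the mitosis list 52 of 53 genes were more negative and 0 more positive, and of the S phase list 37 of 49 and 0. NUF2 stood at 8.55 and 8.65 in sh-p53 and 8.65 in both sh-con arrays under AICAR, a difference of -0.05, and differed by 3.58 under Nutlin. The most positive were ABCA12, a lipid carrier gene, at 3.35, the hyaluronan receptor gene LYVE1 at 3.24, LCN15, a lipocalin gene, at 2.66, the matrix protein gene CCN1 at 2.21, PLAU at 1.99 and SERPINE2, an inhibitor of urokinase and thrombin, at 1.93. ABCA12 under AICAR lay under 4.58 in both lines, so the size of its value is uncertain. SERPINE2 was lower in sh-p53 under both, by -2.05 with AICAR and -3.98 with Nutlin, and PLAU differed by 1.91 with AICAR and -0.08 with Nutlin. Of the 85 p53 targets 11 were more positive under AICAR and 1 more negative. Normalising by quantiles again moved the share of positive calls to 46.0% and centring arrays moved it to 25.3%, against 33.5%. Without the first Nutlin array of sh-con 185 were more positive, and without the second 242 were more positive and 466 more negative. Without the first Nutlin array of sh-p53 the counts were 173 and 409, without the first AICAR array of sh-p53 211 and 426, and without its second AICAR array 220 were more positive.

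Genes of chromosome 4 were lower as a group. Of 439 tested there 67 were called lower (15.3%) and 5 higher (1.14%). On all chromosomes together 4.69% of the genes tested were lower and 4.13% higher, and the shares of other chromosomes below stand beside these. The median difference of chromosome 4 under AICAR was -0.114, beside 0.028 over all genes. In DMSO the median of chromosome 4 was -0.130, beside -0.004 over all genes. Under Nutlin it was -0.054, beside -0.029 over all genes, and several chromosomes lay lower, among them 21 at -0.106 and 22 at -0.087. Cut into 8 blocks in gene order, chromosome 4 had 7 blocks with a median under 0 with AICAR, 8 in DMSO and 6 under Nutlin. Chromosome 2 had the same counts, with an AICAR median of -0.030 over its genes, and chromosome 6 had 8, 8 and 4. With the members of the gene lists left out, the AICAR median of chromosome 4 was -0.111. It lay between -0.257 and -0.073 in the 4 pairs of single arrays. Among the lower genes named above, FBXW7, PLAC8, SPP1, UGT2B4, UGT2B7, SPATA18, HSPA4L and AFP lie on chromosome 4. The higher genes NPNT and PROM1 lie there too. Chromosome 6 had a median of -0.064 under AICAR, -0.072 in DMSO and -0.031 under Nutlin, and 50 of its 674 genes were called lower (7.42%). Chromosome 1 had the highest AICAR median, 0.077, with 100 of 1413 genes called higher (7.08%).

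**Figure D5:**
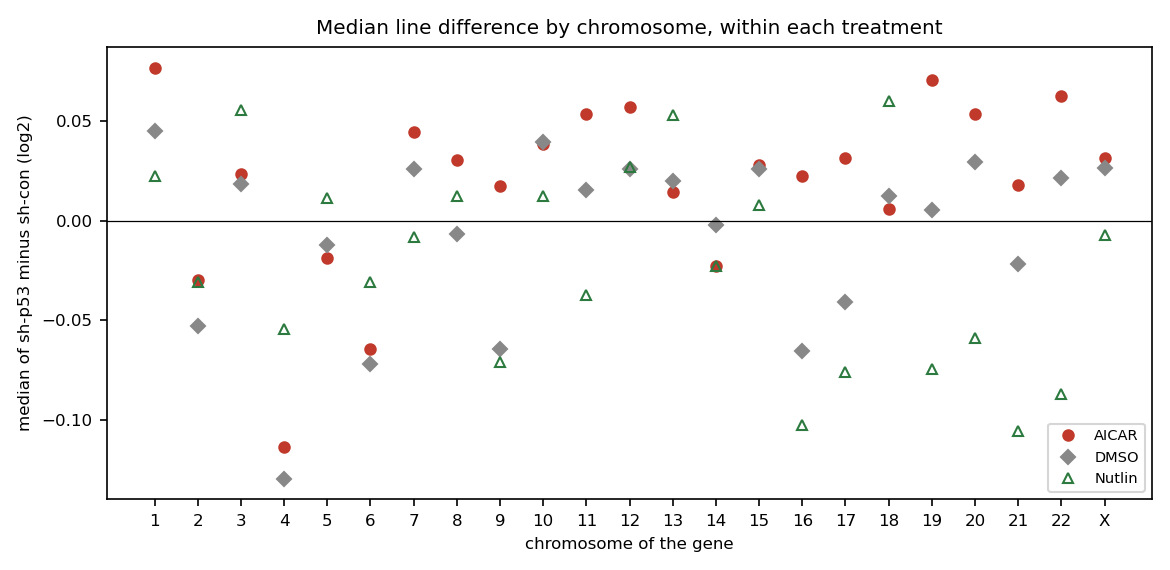
Median difference sh-p53 minus sh-con in log2 over the genes tested on each chromosome, within AICAR, DMSO and Nutlin. Chromosome 4 has the lowest median under AICAR and in DMSO, -0.114 and -0.130, and chromosome 1 the highest under AICAR, 0.077.

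The AICAR differences also followed the base composition of promoters. The 10836 genes with a window were ordered by the share of G and C and cut into 10 groups of like size. The median difference was -0.045 in the lowest group, with a median share of 48.0%, and 0.113 in the highest, with 78.7%. In DMSO the same groups had medians of -0.0005 and -0.024 and under Nutlin -0.015 and -0.067. The highest group exceeded the lowest in each of the 4 pairs of single AICAR arrays, with values between 0.113 and 0.141 in the highest group and between -0.112 and -0.034 in the lowest. The median share was 61.3% in genes called lower, 67.7% in those called higher and 64.6% in all. What base composition contributes to the calls was not tested.

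Of 61 microRNA genes tested, 1 was higher (1.64%) and 3 were lower (4.92%), shares no larger or little larger than those over all genes, 4.13% and 4.69%, so the count says nothing particular of microRNA genes. The probe sets read the transcript around the hairpin and not the mature microRNA, and these 4 genes were chosen after their values had been seen. MIR192, a liver-rich microRNA gene that p53 is known to raise, stood at 4.83 and 5.14 in sh-p53 and at 5.85 and 5.50 in sh-con, a difference of -0.69 ± 0.15. MIR21 stood at 7.95 and 7.84 in sh-p53 and at 8.75 and 8.29 in sh-con, a difference of -0.62 ± 0.17, while VMP1, the gene that ends where it begins, was not called, at -0.12. MIRLET7F1, of the let-7 family, differed by -0.82 ± 0.21, with sh-p53 under 4.58. MIR93, which lies within the helicase gene MCM7, stood at 6.16 and 5.83 in sh-p53 and at 5.16 and 5.29 in sh-con, a difference of 0.77 ± 0.17 beside 0.60 for MCM7. The lines did not overlap in these 4 genes, which were picked from the called genes. Of all genes tested, 19.5% had both sh-p53 arrays under both sh-con arrays and 23.8% had them over. Their mature 5′ arms from RefSeq (GRCh38.p14) are given with the seed, bases 2 to 8, in capitals, and no seed is shared among them. They lie at chr11:64891203-64891223 (minus strand), chr17:59841273-59841294 (plus), chr9:94176353-94176374 (plus) and chr7:100093815-100093837 (minus), in the order shown.
hsa-miR-192-5p: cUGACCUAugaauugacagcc
hsa-miR-21-5p: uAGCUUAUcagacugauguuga
hsa-let-7f-5p: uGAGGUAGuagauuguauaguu
hsa-miR-93-5p: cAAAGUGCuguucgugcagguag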

How the data were processed

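RNA of 12 HepG2 cultures, 200 ng each, was read on Affymetrix Human Gene arrays. The deposited values are log2 values made with RMA and Partek, per the submitters' processing notes; their versions are not given in the sources used here. The method draws arrays towards 1 distribution, understates changes of dim genes and gives no detection call. Each column matched 1 array title, with 0 left over.

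Of 33297 probe sets, 19460 had 1 gene symbol in the platform annotation, 1754 several and 12083 none listed; 19429 of the single symbols were in the RefSeq table of GRCh38.p14. A gene was read by its brightest probe set, giving 18417 genes, 769 with several. The 25th percentile of gene means, 4.58, was the lower limit, which left out 4604 genes and kept 13813.

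The 6 group means of all 12 arrays were fitted with limma 3.58.1 in R 4.3.3 (6 residual degrees of freedom, plus 11.3 from a prior SD of 0.154). There were 5 comparisons: sh-p53 against sh-con under AICAR, in DMSO and under Nutlin, and the AICAR difference against each of the other 2. Calls used a 2-sided Benjamini-Hochberg adjusted p under 0.05 over all genes. The fit was tested on simulated data. The lists, drawn from textbook knowledge, the genes named and the members were chosen with earlier results of these data known. Named were the 12 highest and 12 lowest called genes whose groups did not overlap, up to 5 called members of a list, members of the p53 lists, the 6 highest and lowest interactions, genes called in DMSO too, called markers, and CDKN1A, MDM2 and TP53I3. Alternatives were a repeated quantile normalisation, centring, no filter or the 50th percentile, mean probe sets, a trended prior, a replicate block, AICAR arrays alone and each array left out.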

Additional observations from a re-analysis of the deposited data

Results flagged for a closer look

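The difference between the lines under AICAR departed from that in DMSO, by the interaction, in 42 genes upwards and 98 downwards. The genes at the ends of this test were CABYR (-3.57), TP53I3 (-2.49), CLTRN (-2.49), CSTA (-2.33), LACC1 (-2.30) and ZSCAN4 (-2.25) downwards and HCFC1 (1.66), PLAU (1.55), FAM111B (1.39), CRYBG1 (1.28), BAHD1 (1.26) and SNORA20 (1.16) upwards, all on the log2 scale.

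Against Nutlin the interaction called 364 genes upwards and 724 downwards. The ends were H2BC14 (-4.52), H2BC7 (-3.83), CDK1 (-3.81), SPC25 (-3.67), H4C2 (-3.66) and NUF2 (-3.63) downwards and ABCA12 (3.35), LYVE1 (3.24), LCN15 (2.66), CCN1 (2.21), PLAU (1.99) and SERPINE2 (1.93) upwards. ABCA12 lay under 4.58 in both lines under AICAR, so its size is uncertain.

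Probe sets that were named for no single gene also differed between the lines under AICAR when all probe sets were fitted together. Of 1462 tested with several symbols 11 were higher in sh-p53 and 41 lower, and of 7414 not listed in the annotation 71 were higher and 93 lower.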

How the results depend on the processing

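With 2 arrays a group, the counts of calls depended on the processing and on single arrays. Of the 151 genes called with at least a 2-fold difference under AICAR, 148 to 151 were called again in each alternative, except under the 50th percentile filter, which left 111 called and the rest untested. Of 131 named genes called under AICAR 76 stayed called in every alternative that tested them, 55 were lost in at least 1 and 0 changed direction; the 50th percentile filter tested 112 of the 131. Under AICAR, repeated quantile normalisation called 888 genes higher, and the AICAR arrays alone 341 higher; fitting all probe sets together, an alternative chosen after seeing the data, called 270 higher and 379 lower. Leaving out 1 array gave 139 to 607 higher and 264 to 730 lower under AICAR, 22 to 24 and 20 to 38 in DMSO, and 889 to 1784 and 733 to 983 under Nutlin. For AICAR against DMSO, repeated quantile normalisation gave 132 higher and 216 lower, the trended prior 102 and 175, centring 15 higher and the 50th percentile filter 94 higher, and leaving out 1 array gave 3 to 73 and 35 to 170. For AICAR against Nutlin, repeated quantile normalisation gave 730 higher and centring 211 higher, and leaving out 1 array gave 173 to 461 and 409 to 1064. Why the counts moved was not tested.

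Labels share replicate numbers between groups but do not say what a number marks. Deviations of same-numbered AICAR arrays correlated at r = -0.558 between the lines. The replicate block called 574 genes higher and 668 lower under AICAR, and the block with AICAR numbers crossed, chosen after seeing the data, 958 and 948. The level of 4.58 is a percentile of gene means and not a measured background, and differences of genes near it can be understated.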
